A study of Mus musculus with 3 samples.

Results

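The forkhead genes Foxf1, Foxc2 and Foxl1, which lie close together on mouse chromosome 8, and Foxp4, which lies on chromosome 17, were described in chromatin of primordial germ cells. Each locus was taken as a window on genome build mm9, from 123.57 to 123.68 Mb of chromosome 8 for the 3 clustered genes and from 47.98 to 48.10 Mb of chromosome 17 for Foxp4. Every called region that overlapped a window by at least 1 bp was a member and was kept whole. The windows held 14 of the 18731 H3K27me3 regions and 24 of the 47928 H3K4me3 regions. The cluster window, of 110 kb, held 10 regions of each mark, and the Foxp4 window, of 120 kb, held 4 H3K27me3 and 14 H3K4me3 regions. The loci were chosen for their pattern in these same lists, so the counts and widths describe them and no test was made on them.

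Primordial germ cells were sorted as the GFP-positive cells from pooled gonadal regions of E11.5 embryos, which came from a B6 line carrying an Oct4:GFP transgene crossed to Swiss-Webster females. The H3K27me3 sample, the H3K4me3 sample and an input sample all came from these cells, each stands for 2 replicates, and the input was not analysed here. Because 1 merged list was used per mark, no value below has an error between replicates, and with no read counts in the lists the depth behind a region is unknown. The lists hold no expression, so the identity of the sorted cells could not be checked against marker genes. The marks were precipitated separately from pooled cells, so sequence covered by both lists need not carry both marks in the same cell.

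Forkhead proteins are transcription factors that bind DNA through a shared winged-helix domain. Foxf1 is known for the mesenchyme and vessels of lung and gut, Foxc2 for mesenchyme and lymphatic vessels, Foxl1 for the mesenchyme that underlies the gut epithelium, and Foxp4 is a repressor of the Foxp subfamily active in lung, gut and brain. H3K27me3 is deposited by Polycomb repressive complex 2 and can form long domains around silent developmental genes. H3K4me3 is usually found in short stretches at CpG-rich promoters, and a place with both marks is called bivalent. In RefSeq gene order (assembly GRCm38.p6) the run on chromosome 8 reads Fendrr, Foxf1, Mthfsd, Foxc2, Foxl1, so the cluster also holds Mthfsd, a gene of another family, and is preceded by Fendrr, a long non-coding RNA of the early mesoderm. The neighbours of Foxp4 in that order are the ribosomal RNA gene n-R5s28 and the long non-coding RNA Gm46601. The gene table is of another build than the region lists, so no single region was assigned to a gene, and which of these neighbours fall inside the windows was not examined.

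Of the 4 genes, 1 (Foxp4) was matched in the RefSeq promoter table, and Foxf1, Foxc2 and Foxl1 were not. The Foxp4 promoter is shown because H3K4me3 is typical of CpG-rich starts. The 250 bases before the Foxp4 start (GRCm38.p6, chr17:47924633-47924882, minus strand) are written 5′ to 3′ with every CpG in capitals.
Foxp4 promoter: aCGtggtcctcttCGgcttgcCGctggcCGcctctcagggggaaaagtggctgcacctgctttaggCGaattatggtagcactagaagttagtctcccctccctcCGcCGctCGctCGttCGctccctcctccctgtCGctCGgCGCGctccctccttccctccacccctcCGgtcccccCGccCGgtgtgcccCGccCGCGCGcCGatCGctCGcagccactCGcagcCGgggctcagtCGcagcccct
This stretch holds 27 CpG dinucleotides at a G+C content of 69.6%, and its ratio of observed to expected CpG was 0.959. The median over all 32851 promoters of the table was 0.374, and 8.56% of those promoters held at least as many CpG in the same length. The sequence was not placed on the mm9 regions, so whether it lies in one of the H3K4me3 regions below is not given here.

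H3K27me3 was broken up in the cluster window and nearly continuous in the Foxp4 window. In the cluster window 10 H3K27me3 regions summed to 81.4 kb of a 106.2-kb span, or 76.6% of it. In the Foxp4 window 4 regions summed to 111.2 kb of a 117.6-kb span, or 94.6%. The widest region held 52.8% of the H3K27me3 length in the cluster window and 80.2% in the Foxp4 window. Clipped to the windows, H3K27me3 covered 72.2% of the cluster window and 90.7% of the Foxp4 window.

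**Figure D1:**
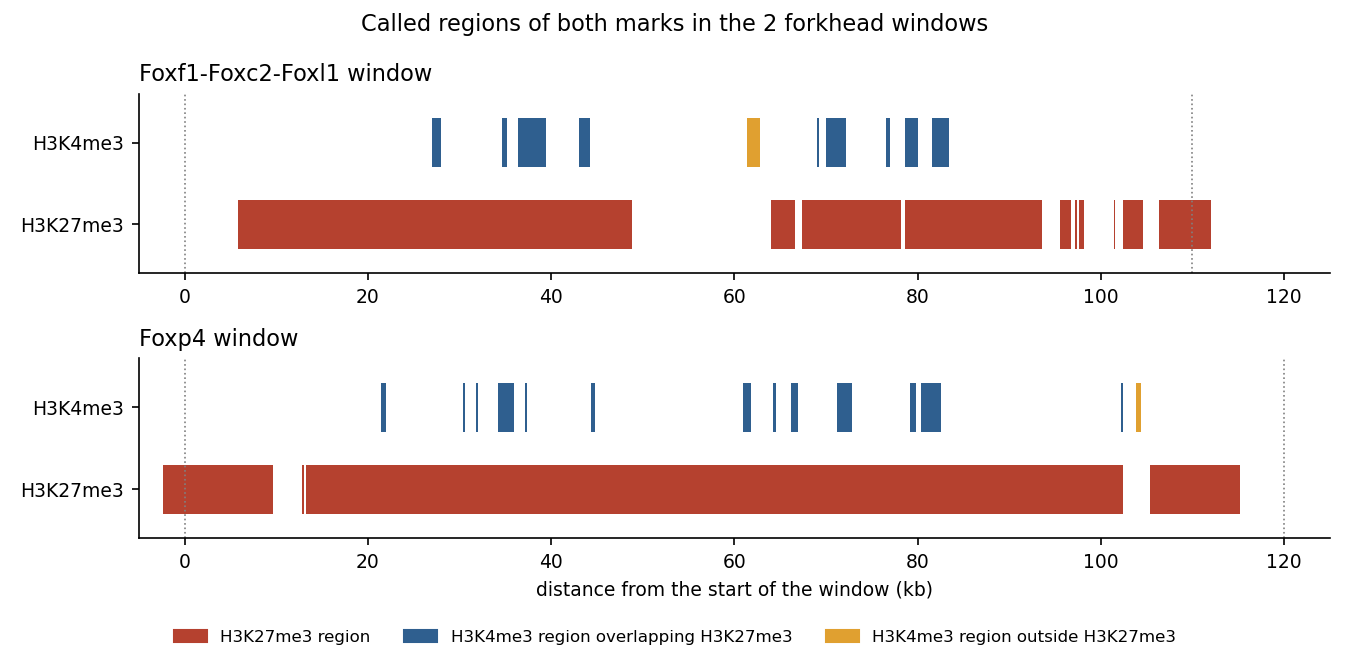
Called regions of H3K27me3 (lower track) and H3K4me3 (upper track) against distance from the start of each window in kb, with the cluster window above the Foxp4 window and dotted lines at the window ends. The cluster shows a 43-kb and a broken H3K27me3 part on either side of a 15.2-kb break, whereas Foxp4 shows 1 region of 89.2 kb, and each locus has 1 H3K4me3 region (orange) that lies in a break.

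In the cluster, a left block and a fragmented right part stood on either side of 1 long break. The left block was a single H3K27me3 region of 43 kb (chr8:123575801-123618800). After a break of 15.2 kb (chr8:123618801-123634000) came 3 regions of 2.6, 10.8 and 15 kb, between 123634001 and 123663600. These 3 were separated by only 800 and 400 bp, and joining across breaks shorter than 1 kb made them 1 region of 29.6 kb. Further right, 6 regions of 200 to 5600 bp followed, the last ending at 123682000. The right part held 9 of the 10 regions and 38.4 kb of H3K27me3, close to the 43 kb of the left block, but covered 80% of its own 48-kb span.

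The Foxp4 domain was the region chr17:47993201-48082400, 89.2 kb wide. On its left it was preceded by a 200-bp call across a break of 200 bp, and by a 12-kb region (chr17:47977601-47989600) across a further 3.2 kb. On its right a 9.8-kb region (chr17:48085401-48095200) followed after 3 kb. Inside the 89.2 kb no step of the 200-bp grid on which the regions were called was left without H3K27me3.

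The cluster window thus held 9 breaks and the Foxp4 window 3, with total lengths of 24.8 and 6.4 kb. In the cluster window 6 H3K27me3 regions began right of the last H3K4me3 region, each after a break. The number of breaks therefore depends on where the window ends. Break lengths in the cluster ran from 200 bp to 15.2 kb with a median of 800 bp, and 5 of the 9 were under 1 kb. In the Foxp4 window they were 200 bp, 3 kb and 3.2 kb. The 15.2-kb break alone made the larger part of the missing length in the cluster, and the longest break by Foxp4 was 3.2 kb. Joining regions less than 1 kb apart left 4 breaks in the cluster window.

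Each locus had H3K4me3 in 1 of its breaks. In the cluster, a 1.4-kb H3K4me3 region (chr8:123631401-123632800) lay in the 15.2-kb break, 12.6 kb from the H3K27me3 on its left and 1.2 kb from the H3K27me3 on its right. By Foxp4, a 600-bp region (chr17:48083801-48084400) lay in the 3-kb break, 1.4 kb from the domain on its left and 1 kb from the region on its right. The other 8 breaks of the cluster and the other 2 by Foxp4 held no H3K4me3. Over the genome, 29.0% of the 1802 gaps of 10 to 20 kb between neighbouring H3K27me3 regions held H3K4me3 (95% Wilson interval 26.9 to 31.1%), as did 9.71% of the 4974 gaps of 1 to 5 kb (8.92 to 10.6%) and 4.10% of the 2564 gaps under 1 kb (3.39 to 4.93%). These intervals treat gaps as independent and cover counting error only.

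An H3K4me3 region that overlapped H3K27me3 is called an island here. The cluster window held 9 islands among its 10 H3K4me3 regions and the Foxp4 window 13 among 14, and all 22 lay wholly inside H3K27me3. Over the genome 18.8% of H3K4me3 regions overlapped H3K27me3. Nothing is read from the difference, since the windows were picked for H3K27me3. Of the H3K27me3 regions, 3 of 10 in the cluster window and 1 of 4 in the Foxp4 window held an island, against 37.5% over the genome.

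In the left block of the cluster 4 islands stood in the right-hand part of the region. Their widths were 1, 0.6, 3 and 1.2 kb in order along the chromosome. The 3-kb island (chr8:123606401-123609400) was the widest of either window and wider than 94.6% of the 9007 islands of the genome. The first 21.2 kb of the block, 49.3% of its width, held no H3K4me3, and the last 4.6 kb held none either.

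Right of the long break, 5 islands lay within 14.4 kb. The 10.8-kb region (chr8:123637401-123648200) held 3, of 0.2, 2.2 and 0.4 kb. The 15-kb region (chr8:123648601-123663600) held 2, of 1.4 and 1.8 kb, the first of them beginning at the very edge of the region. The 400-bp break between these regions fell between islands, and the 1.4-kb island began where that break ended. From the end of the last island at 123653400 to the end of the H3K27me3 at 123682000 no H3K4me3 was called.

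The Foxp4 domain held its 13 islands along most of its length. The first 6 were 0.6, 0.2, 0.2, 1.8, 0.2 and 0.4 kb wide and lay between 48001401 and 48024800. The next 6 were 0.8, 0.4, 0.8, 1.6, 0.6 and 2.2 kb wide and lay between 48041001 and 48062600. The last, of 0.2 kb, ended at the same position as the domain itself, 48082400. The widest, of 2.2 kb (chr17:48060401-48062600), was wider than 85.5% of all islands of the genome.

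Islands of the cluster were the wider ones. Their median width was 1200 bp (quartiles 600 and 1800 bp, n = 9) and that of the Foxp4 islands 600 bp (quartiles 200 and 800 bp, n = 13), a ratio of 2. Islands of at least 1 kb numbered 6 of 9 in the cluster and 3 of 13 by Foxp4, and islands of 400 bp or less numbered 2 of 9 and 6 of 13. The ranges overlapped, from 200 to 3000 bp in the cluster and from 200 to 2200 bp by Foxp4. The median of all 9007 islands of the genome was 1000 bp. That of the 1021 H3K4me3 regions in H3K27me3 regions over 20 kb was 800 bp, so the cluster lay above and Foxp4 below both. Taken per H3K27me3 region, median island width was lower in wider regions. The class medians were 1200 bp (10 to 20 kb), 800 bp (30 to 50 kb) and 700 bp (over 50 kb). The 600 bp of the Foxp4 domain was thus near its class. In the cluster, the 43-kb block had 1100 bp, the 10.8-kb region 400 bp and the 15-kb region 1600 bp. Islands of a locus share 1 precipitation and 1 call, and are not replicates.

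**Figure D2:**
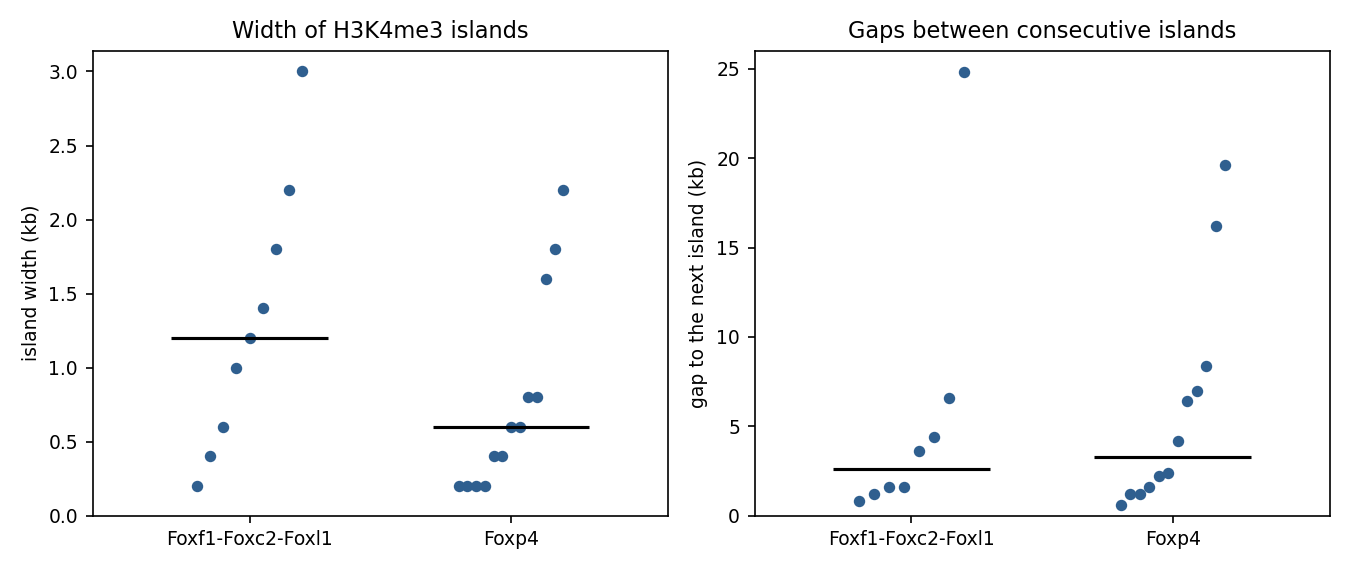
Width of each H3K4me3 island in kb (left) and gap from each island to the next in kb (right), with the cluster left of Foxp4. Points are single islands or gaps and bars are medians (widths 1.2 and 0.6 kb, gaps 2.6 and 3.3 kb). The 24.8-kb gap of the cluster spans the break in H3K27me3, whereas the 16.2- and 19.6-kb gaps of Foxp4 lie inside its unbroken domain.

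The median spacing of islands differed less between the loci than their widths did. Centres of consecutive islands were a median of 4.45 kb apart in the cluster (2 to 25.5 kb, 8 steps) and 4.3 kb apart by Foxp4 (1.4 to 20.8 kb, 12 steps). With an overlap of at least 400 bp asked of an island the medians were 5.7 and 6.45 kb, in the other order. Per 10 kb of H3K27me3 there were 1.11 islands in the cluster window and 1.17 in the Foxp4 window. The order of these densities turned round when narrow regions were left out. With regions of 400 bp or less removed, the ratio of the cluster to Foxp4 was 1.37 in place of 0.946. Sequence with both marks summed to 11.8 kb, or 14.5% of the 81.4 kb of H3K27me3, in the cluster window. By Foxp4 it summed to 10 kb, or 8.99% of 111.2 kb, so the shares also reflect the longer H3K27me3 by Foxp4. In the widest H3K27me3 region of each locus the shares were 13.5% and 11.2%. Here too the order depended on the extent taken, since windows widened by 50 kb on each side gave a ratio of 0.987 in place of 1.61.

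At both loci islands came in groups with long island-free stretches between. With islands less than 10 kb apart put in 1 group, a limit chosen after the values were seen, the cluster had 2 groups and Foxp4 had 3. The groups of the cluster held 4 and 5 islands over 17.2 and 14.4 kb, and H3K4me3 covered 33.7% and 41.7% of those spans. The first groups of Foxp4 held 6 islands each over 23.4 and 21.6 kb, with H3K4me3 on 14.5% and 29.6%. Its last group was the single 0.2-kb island at the domain's end, so that group and the 19.6-kb gap before it rest on 1 narrow call. In the first Foxp4 group only the 0.6- and 1.8-kb islands were over 400 bp wide. They lie more than 10 kb apart (48002000 to 48014201), so that group also rests on narrow calls. Grouping of all islands without narrow ones was not tried. In the cluster the gap between the groups, 24.8 kb, contained the long break in H3K27me3. By Foxp4 the gaps of 16.2 and 19.6 kb were covered by H3K27me3 throughout. The loci thus differed in what lay between island groups, a break with its own H3K4me3 region in the cluster and uninterrupted H3K27me3 by Foxp4.

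**Figure D3:**
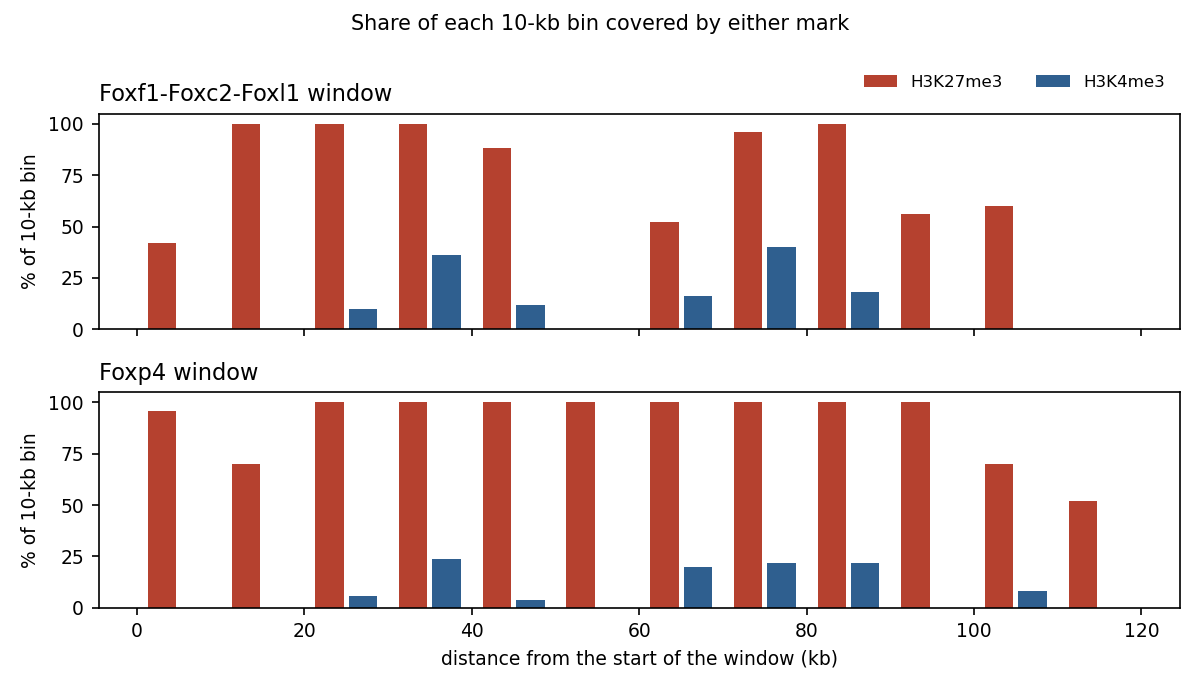
Share of each 10-kb bin covered by H3K27me3 (red) and H3K4me3 (blue), in percent, against distance from the start of the window in kb, cluster above Foxp4. The cluster falls to 0 for both marks between 50 and 60 kb and reaches 36% and 40% H3K4me3 on either side, while Foxp4 stays at 100% H3K27me3 from 20 to 100 kb with at most 24% H3K4me3.

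The widest region of each locus was then set among the 318 H3K27me3 regions of the genome over 20 kb, as a description. The 43-kb block of the cluster was the 52nd widest, and its 0.930 islands per 10 kb were above 54.7% of the 318, whose median was 0.863. The Foxp4 domain was the 9th widest and held the fifth highest number of islands, and its 1.46 islands per 10 kb were above 74.5%. This order turned round without islands of 400 bp or less, where the block was above 69.5% and the Foxp4 domain above 60.7% of the 318. H3K4me3 covered 13.5% of the 43-kb block and 11.2% of the Foxp4 domain, with a median of 8.76% over the 318. Of these regions 34.9% held 4 or more islands.

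**Figure D4:**
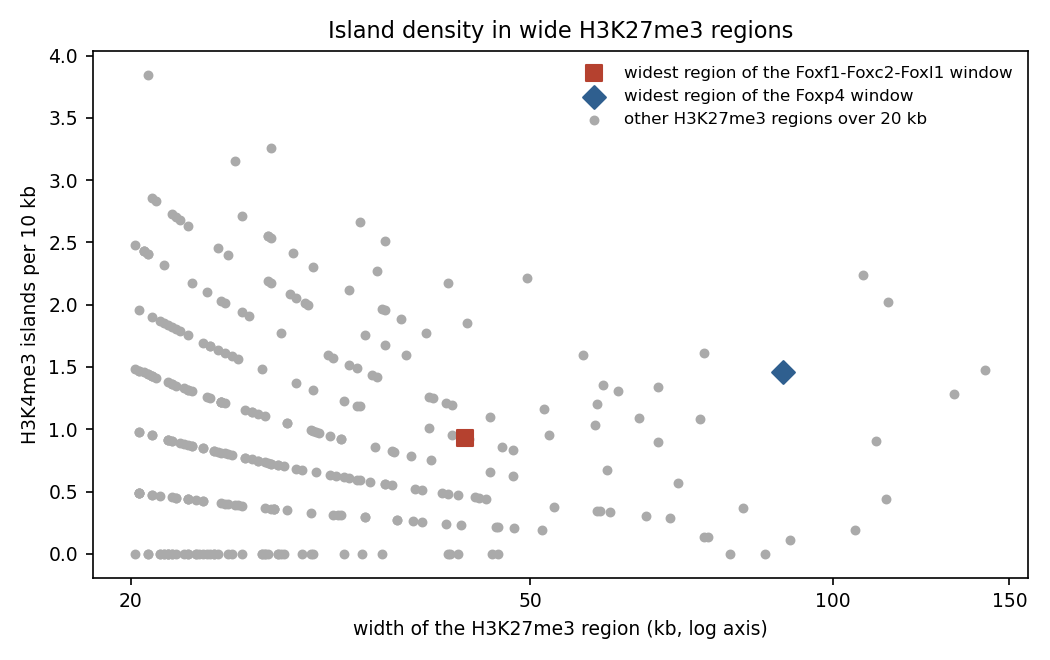
Islands per 10 kb against the width of each H3K27me3 region over 20 kb (kb, log axis). The square is the 43-kb block of the cluster (0.930 islands per 10 kb), the diamond the 89.2-kb domain of Foxp4 (1.46), and grey points are the other regions. The block lies near the median of 0.863 and the Foxp4 domain near the upper quartile of 1.47.

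Among regions of like width the picture differed by part. Of the 35 regions over 50 kb, 5 had more islands per 10 kb than the Foxp4 domain. Its longest stretch without an island, 19.6 kb or 22.0% of its width, was short beside the median of 29.2 kb for the 35. Of the 35, 24 had a longer one. Both values count narrow islands, and 6 of the 13 in this domain were of 400 bp or less. Without these the domain held a longer free stretch, from 48016000 to 48041001. The 35 were not compared without narrow islands. In the class of 30 to 50 kb, 37 of 94 regions had more islands per 10 kb than the 43-kb block, and its free stretch of 21.2 kb was close to the median of 18.3 kb. The small 10.8-kb region of the cluster was the densest member, at 2.78 islands per 10 kb, and 57 of the 839 regions of 10 to 20 kb had more. Its neighbour of 15 kb had 1.33 islands per 10 kb, and 294 of the 839 had more.

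The regions most like each locus in width, island density and H3K4me3 coverage were named by a distance over these 3 measures. For the 43-kb block they were chr8:87284201-87327600 (43.4 kb, 4 islands), chr8:12379201-12419000 (39.8 kb, 3 islands) and chr11:103625801-103667600 (41.8 kb, 5 islands), at distances of 0.288 to 0.349 SD. For the Foxp4 domain they were chr5:120085601-120159400 (73.8 kb, 8 islands), chr8:111214001-111281000 (67 kb, 9 islands) and chr2:33437001-33511400 (74.4 kb, 12 islands), at 0.754 to 0.759 SD. All 3 nearest to the Foxp4 domain were narrower and held fewer islands than it.

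The surroundings of the loci also differed. Left of the cluster window, 50 kb held 54.8% H3K27me3 in 5 regions and no H3K4me3, and the nearest H3K4me3 region on that side lay 185.2 kb from the first island. Right of it, 50 kb held 32.8% H3K27me3 in 10 regions and 1 H3K4me3 region of 800 bp, which overlapped H3K27me3. Around Foxp4 the 50 kb on the left and right held 65.2% and 64% H3K27me3, with 2 and 3 H3K4me3 regions, all of which overlapped it. The next H3K4me3 regions lay 29.6 kb to the left and 26.2 kb to the right of the outermost ones in the Foxp4 window.

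The windows cut through H3K27me3-rich ground, so their ends are no natural borders. The last cluster region reached 2 kb past its window and the first Foxp4 region 2.4 kb before its own. Just outside were H3K27me3 regions of 1 kb on both sides of the cluster window, 1.2 and 3 kb away from it. Just outside the Foxp4 window they measured 9.4 kb on the left and 0.4 kb on the right, 4.8 and 2 kb away.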

How the data were processed

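Bowtie 0.12.7 and the build mm9 are named in the submitters' processing notes. For each mark the authors deposited 1 list with 4 columns (chromosome, start, end and name), whose name credits ChromHMM, a program that assigns chromatin states to fixed bins. The deposited values are positions in bp on a 200-bp grid, with no count, signal, score or p-value. How ChromHMM was set, whether it read the input and how replicates were merged is not stated in the labels. Coordinates are printed counting from 1.

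The 3 samples fell into groups of 1, so no test was run. The members, gene lists and descriptions were chosen with earlier results of these data known. The rule for named items was the 4 genes, every region in both windows, the genes next to them in gene order, and the 3 wide regions nearest by Euclidean distance over standardised log10 width, islands per 10 kb and H3K4me3 coverage. Classes of gap and width and the grouping of islands were chosen after the values were seen. Alternatives were regions over 400 bp only, joining under 1 kb, overlaps of 400 bp or 50% of the shorter region, clipped and widened windows, regions with identical ends left out, and other limits for wide regions (10 and 50 kb). Of 44 forkhead genes listed for a promoter comparison, 28 matched, too few for it, so that check is void. The interval code was tested on simulated data (island number recovered in 200 of 200 regions). Software was matplotlib 3.10.9, scipy 1.17.1, pandas 2.3.3 and numpy 2.4.6 under Python 3.11.15.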

Additional observations from a re-analysis of the deposited data

How the results depend on the processing

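The alternatives gave 210 values for 34 results, of which 193 stayed within 1.5 times the reported value, 14 moved further and 3 were ratios of the loci that crossed 1. Some of the 193 could not move. All islands lay wholly inside H3K27me3, and none had the same ends as an H3K27me3 region. Asking a 50% overlap or leaving out identical ends therefore changed no window value. The overlap settings also cannot alter the extent or breaks of H3K27me3. Among values given for both loci, the order of the loci turned round in 6, in some of them with each value inside 1.5 times. The number of islands per 10 kb, as the ratio of the cluster to Foxp4, was 1.37 without regions of 400 bp or less and 1.21 with an overlap of 400 bp, against 0.946 as reported. By construction both settings drop narrow islands. Leaving out regions of 400 bp or less left 7 islands in each window and 0.631 islands per 10 kb in the Foxp4 window. An overlap of 400 bp left 8 cluster and 9 Foxp4 islands, with 0.809 per 10 kb in the Foxp4 window. It counted 2 cluster and 5 Foxp4 H3K4me3 regions as outside. Without narrow islands the 43-kb block stood above 69.5% and the Foxp4 domain above 60.7% of the wide regions in islands per 10 kb, against 54.7% and 74.5% as reported. The median centre spacing was 5.7 and 6.45 kb in the cluster and Foxp4 windows with an overlap of 400 bp, and 5.7 and 7.5 kb in windows widened by 50 kb, against 4.45 and 4.3 kb. The ratio of H3K27me3 length under H3K4me3 was 0.987 with windows widened by 50 kb on each side. The wider windows, which hold more regions by construction, gave 123.2 and 178.4 kb of H3K27me3 and 23 and 15 breaks in the cluster and Foxp4 windows, a ratio of breaks of 1.53, 2 cluster breaks with H3K4me3 and a longest Foxp4 break of 6.8 kb. Joining regions under 1 kb apart left 4 breaks in the cluster. Splitting island groups at 5 kb, a setting added after the data were seen, gave 6 groups by Foxp4. Where the islands changed, their median width stayed higher in the cluster, by 1.57 to 2.6 times. Placing the cluster's 43-kb block among regions over 50 kb could not be done, since it is narrower. No paired analysis was possible because each mark has 1 list, and for the same reason no replicate could be left out. Without read counts, the limit that depth sets on which regions were called is unknown.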
